A study of Homo sapiens with 14 samples.

Results

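A set of 9 genes that control cell death from the cell surface inward were followed: the death receptors FAS, TNFRSF10A, TNFRSF10B and TNFRSF1A, the adaptor TRADD, the caspase-8 inhibitor CFLAR, the initiator caspase CASP10, and the inhibitor of apoptosis proteins BIRC2 and XIAP. They are the 9 genes carrying these symbols among the 58051 genes of the deposited tables, and all 9 were measured and passed the filter on low values in both lines. The study asked what ZBP1, a sensor of left-handed nucleic acids, does in human multiple myeloma, using the established lines MM1.S and H929. Cells were infected with lentivirus that expressed shRNA1 or shRNA2, which are hairpins against ZBP1, or a scrambled control, and poly(A)-selected RNA was sequenced. Each of the 7 groups has 2 libraries: MM1.S shRNA1, MM1.S shRNA2 and 1 MM1.S scramble group that both hairpins share, and H929 shRNA1 and H929 shRNA2, each with its own H929 scramble group. The vector, the time after infection and any selection of infected cells are not given in the sources used here. Whether the 2 libraries of a group are separate cultures is not stated, so the spread that p-values rest on could be technical.

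Death receptors of the tumour necrosis factor superfamily carry a death domain in the cell. FAS and the TRAIL receptors recruit FADD, which gathers caspase-8 and caspase-10 into a complex where they activate each other, while CFLAR, also called c-FLIP, resembles those caspases and restrains that step. TNFRSF1A instead recruits TRADD and RIPK1, and the ubiquitin ligases BIRC2 and BIRC3 (cIAP1 and cIAP2) keep that complex signalling to NF-kB and away from caspase activation and necroptosis. XIAP acts at the end of the route, where it binds and blocks active caspases. TRAIL receptors and IAPs have both been studied as drug targets in myeloma.

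ZBP1 itself checks the labels. In MM1.S it had 22.2 and 26.3 CPM (read counts divided by library size, with trimmed mean of M-values scaling) in the shRNA1 libraries and 14.8 and 18.04 CPM in the shRNA2 libraries, against 138 and 146 CPM in the scramble libraries. In H929 it had 1659 and 1888 deposited normalized counts with shRNA1, against 4269 and 4513 in its scramble libraries, and 1229.5 and 1109.6 with shRNA2, against 3449 and 3729 in its own. In each line all knockdown libraries lay below all scramble libraries. Reads in genes came to 20.46 to 28.42 M per MM1.S library and 15.93 to 22.25 M per H929 library. Mitochondrial genes took 11.59% to 12.07% of reads in the MM1.S knockdown libraries, against 9.87% to 10.21% in scramble, and 5.98% to 6.34% with shRNA1 and 8.72% to 8.80% with shRNA2 in H929, against 6.63% to 7.22% in scramble. The 7 plasma cell markers summed to 2590 to 3079 CPM in MM1.S knockdown libraries, against 4391 to 4533 CPM in scramble, and to 4254 to 4906 CPM in H929 knockdown libraries, against 5133 to 5260 CPM in scramble, with no marker at 0 throughout. Single markers of this list did not all go with the sum. CD38 averaged 303 ± 49.3 CPM in MM1.S shRNA1, against 76.1 ± 16.9 CPM in scramble (SD, n = 2 each). In H929 shRNA1 PRDM1 averaged 676 ± 61.3 CPM, IRF4 1359.7 ± 164 CPM and CD38 379.7 ± 47.5 CPM, against 396 ± 7.18 CPM, 987 ± 76.3 CPM and 278 ± 28.4 CPM in its scramble. In H929 shRNA2 SDC1 averaged 935 ± 25.3 CPM, TNFRSF17 558 ± 13.3 CPM and SLAMF7 284 ± 7.64 CPM. Their means in its scramble were 821 ± 69.6 CPM, 534 ± 6.73 CPM and 256 ± 9.55 CPM, while CD38, IRF4, PRDM1 and XBP1 were lower with shRNA2. Markers of B cells (3 genes) summed to at most 4.46 CPM in any library. The 3 epithelial markers summed to 0.410 to 1.40 CPM in MM1.S knockdown and 0.563 to 0.770 CPM in MM1.S scramble libraries, and to 9.71 to 28.4 CPM in H929 knockdown and 12.2 to 16.9 CPM in H929 scramble libraries. The myeloid, fibroblast and T cell lists were led by single genes, and 1 T cell marker was at 0 in all MM1.S libraries. ITGAM of the 3 myeloid markers had 19.0 and 23.4 CPM in MM1.S shRNA1, against 0.734 and 1.62 in scramble. COL1A1 of the 2 fibroblast markers had 34.8 and 29.4 CPM in H929 shRNA1, against 1.07 and 0.860 in its scramble. CD3E of the 3 T cell markers had 31.2 and 24.0 CPM in H929 shRNA2, against 7.60 and 6.83 in its scramble. The part of these shifts in the member results was not tested. In bulk RNA, fewer cells of a type and less RNA per cell cannot be told apart.

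The hairpins did not move the 9 genes alike. With shRNA1, 4 members rose and 0 fell in MM1.S (CFLAR, TNFRSF10B, TNFRSF10A and BIRC2), where 37.5% of all 17820 genes tested passed in either direction, 17.8% higher and 19.7% lower. In H929, 5 rose with shRNA1 (FAS, TNFRSF1A, XIAP, BIRC2 and CFLAR) and 2 fell (TRADD and TNFRSF10B), where 53.4% of 18213 genes passed, 25.7% higher and 27.7% lower. With shRNA2, 1 member rose (TNFRSF10B) and 2 fell (CASP10 and TNFRSF1A) in MM1.S, where 36.6% of genes passed, 14.9% higher and 21.7% lower. In H929, 1 rose with shRNA2 (FAS) and 3 fell (TNFRSF10A, CASP10 and CFLAR), where 43.0% passed, 18.0% higher and 25.0% lower. Passing means a Benjamini-Hochberg adjusted p under 0.05 over all genes, from edgeR in MM1.S and limma in H929. With shRNA1 the members' median log2 fold change was 0.35 in MM1.S and 0.31 in H929, beside 0.00238 and -0.00898 over all genes tested. With shRNA2 it was -0.05 in MM1.S and -0.08 in H929, beside -0.03 and -0.02 over all genes. CFLAR and BIRC2 were the 2 members higher with shRNA1 in both lines, as were 10.2% of the 15761 genes tested in both. TNFRSF10B moved in opposite directions, as did 2.87% of genes. CASP10 was the 1 member lower with shRNA2 in both lines, as were 15.3% of those genes, and 0 members were higher in both, against 9.09% of genes. BIRC2 was the 1 member whose fold change was positive in all 4 comparisons. In MM1.S, same-numbered libraries deviated together, and a fit with the replicate number as a block called 8 members with shRNA1 (7 higher, 1 lower) and 7 with shRNA2 (4 higher, 3 lower), while it called 59.4% and 58.8% of all genes. The calls shared by the lines above are without the block. With it, FAS and XIAP also passed as higher in MM1.S shRNA1 (edgeR adjusted p 0.00112 and 0.00403), as in H929. TRADD passed there as higher (edgeR adjusted p 0.00340), opposite to H929. With shRNA2, FAS passed as lower and TNFRSF10A as higher in MM1.S, also opposite to H929. The share of all genes so shared was not computed with the block. In H929, leaving out replicate 1 of the scramble for shRNA1 left 3 members passing with shRNA1. Leaving out either shRNA2 library left 1 passing with shRNA2, and leaving out either of its scramble libraries left 2. In MM1.S, 1 member passed with shRNA2 without either shRNA2 library or without scramble replicate 1.

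**Figure D1:**
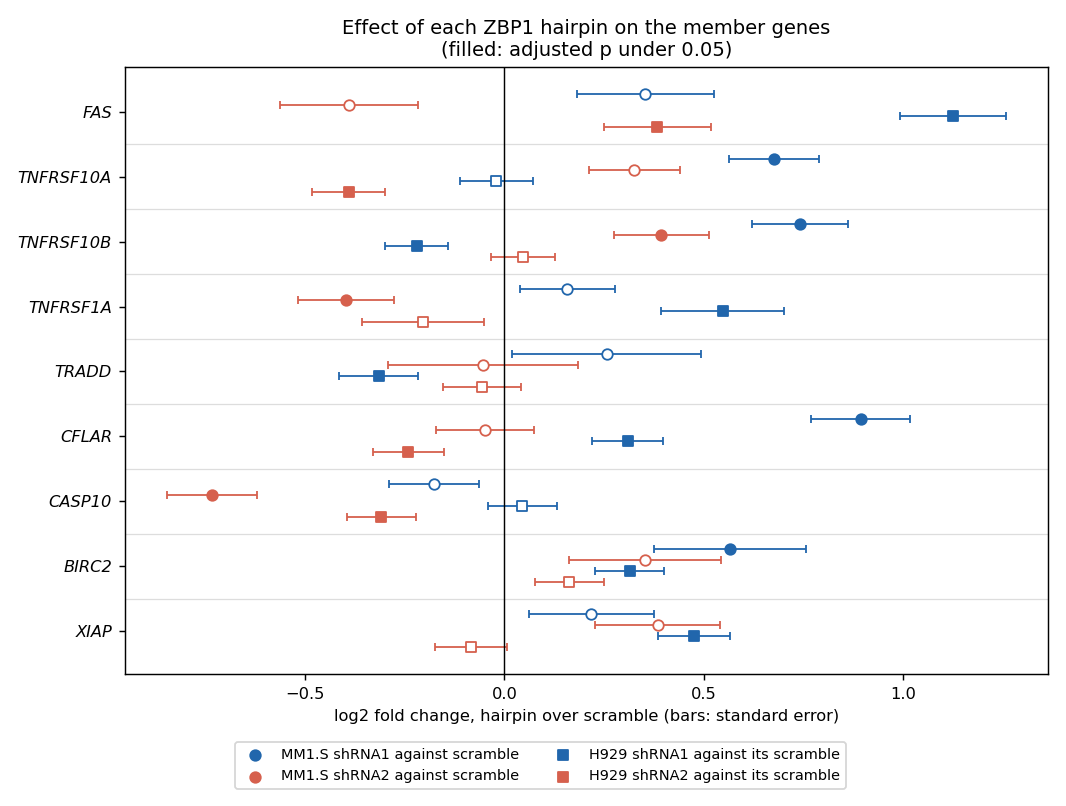
Log2 fold change of each member gene (rows) for each hairpin over its scramble group, with its standard error as a bar. Circles are MM1.S (edgeR) and squares H929 (limma), blue is shRNA1 and red shRNA2, and filled symbols passed an adjusted p under 0.05; blue symbols lie mostly to the right of red ones, up to 1.13 for FAS in H929.

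All 9 members had reads in every scramble library, and TNFRSF10B had the highest mean of the receptors in both lines. Levels between genes are compared as CPM per kilobase of annotated exon in the scramble libraries, and the lines are set side by side without a test because their tables were scaled separately. In the 2 MM1.S scramble libraries CASP10 was highest, at 23.6 ± 1.14 CPM per kb (SD), followed by TNFRSF10B at 19.7 ± 1.91, TNFRSF1A at 19.0 ± 0.202, TRADD at 18.8 ± 5.56 and TNFRSF10A at 15.5 ± 0.344. BIRC2 stood at 12.1 ± 2.39, FAS at 9.20 ± 1.49, XIAP at 8.97 ± 1.15 and CFLAR at 7.32 ± 0.100 CPM per kb. The libraries of TNFRSF10B, TNFRSF1A, TRADD and TNFRSF10A overlapped from one neighbour to the next, as did those of FAS and XIAP, whereas CASP10, BIRC2 and CFLAR overlapped no neighbour. In the 4 H929 scramble libraries TNFRSF10B led, at 37.1 ± 5.98 CPM per kb, above all 8 other members. CASP10 (21.1 ± 2.75), TNFRSF10A (20.7 ± 2.15), XIAP (18.9 ± 1.42), TRADD (14.9 ± 2.76) and BIRC2 (13.9 ± 1.87) formed a chain of overlapping neighbours. CFLAR followed at 8.08 ± 1.98, and FAS (2.44 ± 0.347) and TNFRSF1A (2.23 ± 0.158) were lowest and overlapped. FAS and TNFRSF1A had 143 to 207 reads in each H929 scramble library. They exceeded 72.1% and 71.1% of the 34943 genes with a read there, and CFLAR, lowest in MM1.S, exceeded 81.7% of 31583. These sets include genes with too few reads to pass the filter on low values. CFLAR's exons add to 22529 bases in the annotation, far more than those of any other member, so its level per kb is the most sensitive to the exon set used.

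**Figure D2:**
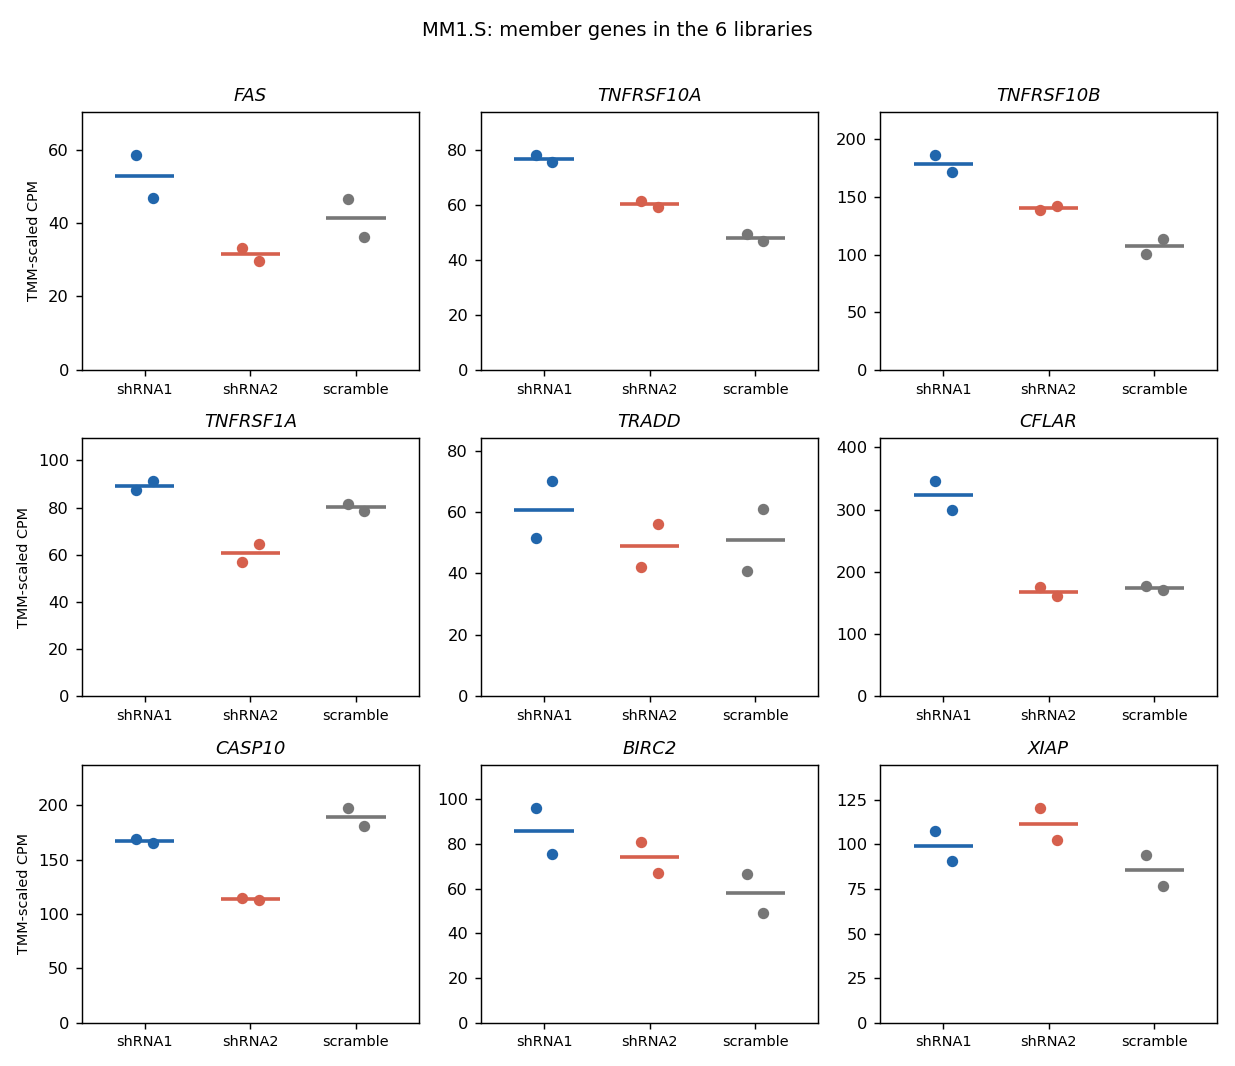
CPM (vertical axes, from 0) of each member in the 6 MM1.S libraries; points are libraries and lines are group means, with shRNA1, shRNA2 and scramble from left to right. Both CFLAR points with shRNA1 (346 and 300.1) stand far above the other 4 libraries, and both CASP10 points with shRNA2 (115 and 113) far below.

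FAS (chr10:88990582-89015785, GRCh38, plus strand), the receptor for FAS ligand, was the member that changed most with shRNA1 in H929. Its H929 libraries had 390.3 and 444 normalized counts with shRNA1, against 201 and 179.6 in its scramble, and 216 and 223 with shRNA2, against 176 and 161 in its own. Both shRNA1 libraries were far above their scramble, and the shRNA2 libraries lay above theirs without overlap. The log2 fold changes were 1.13 ± 0.13 (SE), limma adjusted p 2.82e-06, with shRNA1 and 0.38 ± 0.13 (SE), limma adjusted p 0.0290, with shRNA2. The shRNA2 call was lost without scramble for shRNA2 replicate 2, shRNA2 replicate 1 or shRNA2 replicate 2 (log2 0.32 to 0.41, limma adjusted p 0.105 to 0.149), and over all alternatives the adjusted p was 0.0172 to 0.149. In MM1.S, FAS had 58.6 and 46.8 CPM with shRNA1 and 33.2 and 29.8 CPM with shRNA2, against 46.5 and 36.1 CPM in scramble. The shRNA1 libraries were both above the scramble libraries, the lower of them by a narrow margin, and the shRNA2 libraries both below, and replicate 1 was the higher in every group. The fold changes of 0.35 ± 0.17 (SE), edgeR adjusted p 0.142, and -0.39 ± 0.17 (SE), edgeR adjusted p 0.114, did not pass, while with the replicate block they did (0.35, edgeR adjusted p 0.00112, and -0.38, edgeR adjusted p 8.53e-04). FAS shares 380 exon bases (8.9%) with ACTA2 on the opposite strand, and whether the counting used strand is not given in the sources used here.

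The window of 251 bases before and including the start site of FAS is shown because FAS had the largest fold change of any member. It is taken from RefSeq on GRCh38.p14 (chr10:88990548-88990798, plus strand), 5′ to 3′. Capitals mark the 1 match to TGANTCA, with 235 bases between it and the start site. TGANTCA is a loose AP-1 pattern in which N is any base. The match, TGAATCA, has A there and is not called an AP-1 site here.
FAS: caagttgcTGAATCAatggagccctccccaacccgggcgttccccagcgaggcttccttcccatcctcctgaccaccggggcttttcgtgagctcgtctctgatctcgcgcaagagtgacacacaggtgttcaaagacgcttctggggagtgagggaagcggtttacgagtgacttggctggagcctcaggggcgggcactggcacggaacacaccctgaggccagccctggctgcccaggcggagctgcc
Both strands of such windows were searched for the NF-kB motif, the cyclic AMP response element TGACGTCA, the loose AP-1 pattern, the E-box CACGTG, the core of the interferon-stimulated response element, the CCAAT box CCAAT, the TATA box TATAAA and the GC box GGGCGG. Among 35116 windows of this length, 6.7% held the loose AP-1 pattern. FAS also held 1 GC box, as 42.7% of windows did. Capitals mark the first 5 of these motifs. RefSeq windows on GRCh38.p14 were at hand for FAS, TNFRSF1A, CFLAR, BIRC2 and XIAP, and where a gene had several, the one nearest the annotated gene start was used. The RefSeq start site of FAS, at 88990798, lies inside the gene as annotated from 88990582. Most of the FAS window is thus within the annotated gene, and the match to the loose AP-1 pattern lies before the annotated start.

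The TRAIL receptors TNFRSF10A and TNFRSF10B (DR4 and DR5), which bind the ligand encoded by TNFSF10, both rose with shRNA1 in MM1.S. TNFRSF10B had 187 and 171 CPM with shRNA1 and 139 and 142 CPM with shRNA2, against 101 and 113 CPM in scramble. Its 3 MM1.S groups did not overlap, with shRNA1 highest and scramble lowest. The log2 fold changes were 0.74 ± 0.12 (SE), edgeR adjusted p 0.00239, with shRNA1 and 0.39 ± 0.12 (SE), edgeR adjusted p 0.0350, with shRNA2. The shRNA2 call was lost without scramble replicate 1, shRNA2 replicate 1 or shRNA2 replicate 2 (log2 0.31 to 0.42, edgeR adjusted p 0.138 to 0.166), within a range of 5.49e-04 to 0.166 over all alternatives. TNFRSF10A had 78.4 and 75.6 CPM with shRNA1 and 61.6 and 59.3 CPM with shRNA2, against 49.5 and 46.9 CPM in scramble. The order of the groups was the same and again they did not overlap. It rose with shRNA1 (0.68 ± 0.11 (SE), edgeR adjusted p 0.00281). With shRNA2 the fold change was 0.33 ± 0.11 (SE), edgeR adjusted p 0.0550, which passed with the replicate block (0.33, edgeR adjusted p 3.99e-04).

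In H929 neither TRAIL receptor rose. TNFRSF10B had 3193 and 3024 normalized counts with shRNA1, against 3671 and 3570.5 in its scramble, and 3133 and 3032 with shRNA2, against 3015 and 2955 in its own. The scramble for shRNA1 was the group that stood apart, above the other 6 libraries. TNFRSF10B fell with shRNA1 (-0.22 ± 0.08 (SE), limma adjusted p 0.0279) and had 0.05 ± 0.08 (SE), limma adjusted p 0.667, with shRNA2. The shRNA1 call was lost without scramble for shRNA1 replicate 1, scramble for shRNA1 replicate 2, shRNA1 replicate 2, shRNA2 replicate 1 or shRNA2 replicate 2 (log2 -0.24 to -0.18, limma adjusted p 0.0582 to 0.116), within a range of 0.0257 to 0.116 over all alternatives. TNFRSF10A had 894 and 942 normalized counts with shRNA1, against 975 and 889 in its scramble, and 927 and 889.8 with shRNA2, against 1188 and 1192 in its own. It fell with shRNA2 (-0.39 ± 0.09 (SE), limma adjusted p 0.00264), while shRNA1 gave -0.02 ± 0.09 (SE), limma adjusted p 0.865. The shRNA2 libraries lay within the range of the scramble for shRNA1, and only the scramble for shRNA2 was above the other 6 libraries. The genes lie on the minus strand of chromosome 8 at chr8:23020133-23069179 and chr8:23190452-23225126 (GRCh38), 121.3 kb apart. The decoy receptors TNFRSF10C and TNFRSF10D, which bind TRAIL without a working death domain, lie between them and are named for that reason after their values were seen. TNFRSF10D rose with shRNA1 in MM1.S (1.38 ± 0.15 (SE), edgeR adjusted p 4.55e-04) and in H929 (0.97 ± 0.09 (SE), limma adjusted p 2.68e-07), and fell with shRNA2 in H929 (-0.37 ± 0.09 (SE), limma adjusted p 0.00416), where its scramble groups also differed (-0.75, limma adjusted p 2.72e-05). TNFRSF10C rose with shRNA1 and with shRNA2 in MM1.S (1.49 ± 0.24 (SE), edgeR adjusted p 0.00239, and 0.92 ± 0.24 (SE), edgeR adjusted p 0.0209) and fell with shRNA1 in H929 (-0.39 ± 0.13 (SE), limma adjusted p 0.0163). TNFRSF10A shares 16.6% of its exon bases with opposite-strand transcripts, and TNFRSF10B 1.3% with RHOBTB2. TNFRSF10C shares 39.3% with AC107959.4 and AC107959.5 on the same strand.

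TNFRSF1A (chr12:6328757-6342114, minus strand), the main receptor for tumour necrosis factor, fell with shRNA2 in MM1.S and rose with shRNA1 in H929. The MM1.S libraries had 87.4 and 91.1 CPM with shRNA1 and 56.8 and 64.7 CPM with shRNA2, against 81.5 and 78.5 CPM in scramble. The groups did not overlap, with shRNA1 highest and shRNA2 lowest. It fell with shRNA2 (-0.40 ± 0.12 (SE), edgeR adjusted p 0.0335) and had 0.16 ± 0.12 (SE), edgeR adjusted p 0.328, with shRNA1. The shRNA2 call was lost without any 1 of the 6 MM1.S libraries (adjusted p 0.0734 to 0.242, log2 -0.49 to -0.30), within a range of 2.91e-04 to 0.242 over all alternatives. The H929 libraries had 241 and 202 normalized counts with shRNA1, against 139 and 163 in its scramble, and 141 and 133 with shRNA2, against 163 and 153 in its own. The shRNA1 libraries were above every other H929 library. TNFRSF1A rose with shRNA1 (0.55 ± 0.15 (SE), limma adjusted p 0.00675) and had -0.20 ± 0.15 (SE), limma adjusted p 0.300, with shRNA2. The shRNA1 call was lost without scramble for shRNA1 replicate 1 or shRNA1 replicate 1 (log2 0.42 to 0.43, limma adjusted p 0.0660 to 0.0680), within a range of 0.00422 to 0.0680 over all alternatives.

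TRADD (chr16:67154180-67160298, minus strand), the adaptor that TNFRSF1A recruits, overlapped between all 3 MM1.S groups and fell with shRNA1 in H929. In MM1.S it had 51.5 and 70.0 CPM with shRNA1 and 42.0 and 56.1 CPM with shRNA2, against 40.8 and 60.9 CPM in scramble. Replicate 2 was the higher library in each group, and each shRNA1 library was above the scramble library of its number. The fold changes were 0.26 ± 0.24 (SE), edgeR adjusted p 0.429, and -0.05 ± 0.24 (SE), edgeR adjusted p 0.881, and the shRNA1 value passed with the replicate block (0.27, edgeR adjusted p 0.00340). In H929 it had 594 and 592 normalized counts with shRNA1, against 710.3 and 767 in its scramble, and 539.9 and 581 with shRNA2, against 573 and 592 in its own. The scramble for shRNA1 was again the group above the rest. TRADD fell with shRNA1 (-0.32 ± 0.10 (SE), limma adjusted p 0.0129), a call lost without scramble for shRNA1 replicate 2 (log2 -0.26, limma adjusted p 0.0937) within a range of 0.0124 to 0.0937 over all alternatives, and had -0.06 ± 0.10 (SE), limma adjusted p 0.671, with shRNA2. It shares 126 exon bases (4.9%) with FBXL8 on the opposite strand.

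CFLAR (chr2:201116104-201176687, plus strand), the brake on caspase-8, was the member that changed most in MM1.S. It had 346 and 300.1 CPM with shRNA1 and 175 and 161 CPM with shRNA2, against 177 and 170.2 CPM in scramble. The shRNA1 libraries stood far above the other 4, and the shRNA2 libraries overlapped scramble. CFLAR rose with shRNA1 (0.89 ± 0.12 (SE), edgeR adjusted p 0.00120, 1.86-fold), while shRNA2 gave -0.05 ± 0.12 (SE), edgeR adjusted p 0.782. In H929 it had 4614 and 4396 normalized counts with shRNA1, against 3349 and 3948 in its scramble, and 2241 and 2192 with shRNA2, against 2621 and 2619 in its own. The 4 H929 groups did not overlap: shRNA1 was highest, then its scramble, then the scramble for shRNA2, then shRNA2. CFLAR rose with shRNA1 (0.31 ± 0.09 (SE), limma adjusted p 0.00805) and fell with shRNA2 (-0.24 ± 0.09 (SE), limma adjusted p 0.0384). The shRNA1 call was lost without scramble for shRNA1 replicate 1 (log2 0.19, limma adjusted p 0.133), within a range of 0.00221 to 0.133 over all alternatives. The shRNA2 call was lost without either shRNA2 library or either of their scramble libraries (log2 -0.26 to -0.23, limma adjusted p 0.109 to 0.188), within a range of 0.00922 to 0.188 over all alternatives. CFLAR shares 12.0% of its exon bases with 3 other annotated genes, of which the pseudogene IMPDH1P10 and CFLAR-AS1 lie on the opposite strand.

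CFLAR and BIRC2 are shown by their promoter windows because they rose with shRNA1 in both lines in the fits without the replicate block. The windows hold the 250 bases before the start site and its first base, from RefSeq on GRCh38.p14, 5′ to 3′ (chr2:201118466-201118716 for CFLAR and chr11:102346964-102347214 for BIRC2, both on the plus strand). Capitals mark 1 NF-kB motif match in CFLAR and 1 cyclic AMP response element in BIRC2.
CFLAR: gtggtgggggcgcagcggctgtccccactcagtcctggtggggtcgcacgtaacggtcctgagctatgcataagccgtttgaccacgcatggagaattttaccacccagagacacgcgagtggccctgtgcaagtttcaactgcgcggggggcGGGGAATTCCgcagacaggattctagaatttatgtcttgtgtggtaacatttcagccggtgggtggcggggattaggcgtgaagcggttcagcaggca
BIRC2: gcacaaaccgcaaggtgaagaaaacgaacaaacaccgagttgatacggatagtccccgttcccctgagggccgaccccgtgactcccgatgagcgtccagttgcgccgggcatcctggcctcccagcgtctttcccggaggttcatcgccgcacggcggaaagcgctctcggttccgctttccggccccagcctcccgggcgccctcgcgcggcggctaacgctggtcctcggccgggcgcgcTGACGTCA
The CFLAR match, GGGGAATTCC, lies 87 bases before the RefSeq start site and shares 2 bases with a GC box, and 5.2% of the 35116 windows held an NF-kB motif. That start site, at 201118716, lies inside CFLAR as annotated from 201116104. The whole CFLAR window, with its match, is thus within the annotated gene and not before it. The BIRC2 match, TGACGTCA, has the start site as its last base, and 1.7% of windows held one. None of the first 5 motifs was found in the windows of TNFRSF1A or XIAP. A match is a run of letters and not evidence of binding.

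CASP10 (chr2:201182881-201229406, plus strand), an initiator caspase, is the next gene along from CFLAR, 6.2 kb away on the same strand with 0 protein-coding genes between them. The MM1.S libraries had 169 and 165 CPM with shRNA1 and 115 and 113 CPM with shRNA2, against 198 and 180.5 CPM in scramble. The 3 groups did not overlap and the shRNA2 libraries were far the lowest. CASP10 fell with shRNA2 (-0.73 ± 0.11 (SE), edgeR adjusted p 0.00201, 0.601 times scramble) and had -0.18 ± 0.11 (SE), edgeR adjusted p 0.250, with shRNA1, a value that passed with the replicate block (-0.18, edgeR adjusted p 0.0172). The H929 libraries had 3209 and 2895 normalized counts with shRNA1, against 2856 and 3058 in its scramble, and 2113 and 2071 with shRNA2, against 2689.9 and 2498 in its own. The shRNA2 libraries were the lowest of the 8, and the shRNA1 libraries overlapped their scramble. CASP10 fell with shRNA2 (-0.31 ± 0.09 (SE), limma adjusted p 0.00876) and had 0.04 ± 0.09 (SE), limma adjusted p 0.686, with shRNA1. The H929 shRNA2 call was lost without scramble for shRNA2 replicate 1, shRNA2 replicate 1 or shRNA2 replicate 2 (log2 -0.32 to -0.26, limma adjusted p 0.0559 to 0.0798), within a range of 0.00197 to 0.0798 over all alternatives. With shRNA1 in MM1.S, CASP10 thus had a log2 fold change of -0.18 and its neighbour CFLAR one of 0.89, and the difference between the genes was not tested.

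BIRC2 (chr11:102347211-102378670, plus strand), the ubiquitin ligase cIAP1, rose with shRNA1 in both lines. In MM1.S it had 96.2 and 75.3 CPM with shRNA1 and 80.9 and 67.1 CPM with shRNA2, against 66.7 and 49.2 CPM in scramble. Both knockdown groups lay above scramble, shRNA2 by a narrow margin, and replicate 1 was the higher library in each group. The fold changes were 0.57 ± 0.19 (SE), edgeR adjusted p 0.0494, with shRNA1 and 0.35 ± 0.19 (SE), edgeR adjusted p 0.184, with shRNA2. The shRNA1 call was lost without scramble replicate 2, shRNA1 replicate 1, shRNA2 replicate 1 or shRNA2 replicate 2 (log2 0.36 to 0.57, edgeR adjusted p 0.0641 to 0.219), within a range of 9.25e-06 to 0.219 over all alternatives. The shRNA2 value passed with the replicate block (0.36, edgeR adjusted p 3.24e-04). In H929 it had 1444 and 1453 normalized counts with shRNA1, against 1119 and 1213 in its scramble, and 1125 and 1131 with shRNA2, against 1019.5 and 997 in its own. Knockdown was above its own scramble without overlap in both pairs. The fold changes were 0.31 ± 0.09 (SE), limma adjusted p 0.00607, and 0.16 ± 0.09 (SE), limma adjusted p 0.144. The shRNA1 call was lost without scramble for shRNA1 replicate 1 (log2 0.26, limma adjusted p 0.0609), within a range of 0.00427 to 0.0609 over all alternatives.

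XIAP (chrX:123859724-123913979, plus strand), which blocks active caspases, rose with shRNA1 in H929. There it had 3856 and 4423 normalized counts with shRNA1, against 2892 and 3049.9 in its scramble, and 2833 and 2726 with shRNA2, against 3101 and 2799 in its own. The shRNA1 libraries were above the other 6, which were close together. The fold changes were 0.48 ± 0.09 (SE), limma adjusted p 3.29e-04, and -0.08 ± 0.09 (SE), limma adjusted p 0.479, and the shRNA1 call held in all 8 fits that left out 1 library. In MM1.S it had 108 and 90.8 CPM with shRNA1 and 121 and 102 CPM with shRNA2, against 94.1 and 76.7 CPM in scramble. The shRNA1 libraries overlapped scramble, though each was above the scramble library of its number, and the shRNA2 libraries lay above both scramble libraries. The fold changes of 0.22 ± 0.16 (SE), edgeR adjusted p 0.306, and 0.38 ± 0.16 (SE), edgeR adjusted p 0.0898, did not pass, and both passed with the replicate block (0.22, edgeR adjusted p 0.00403, and 0.39, edgeR adjusted p 7.80e-05).

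**Figure D3:**
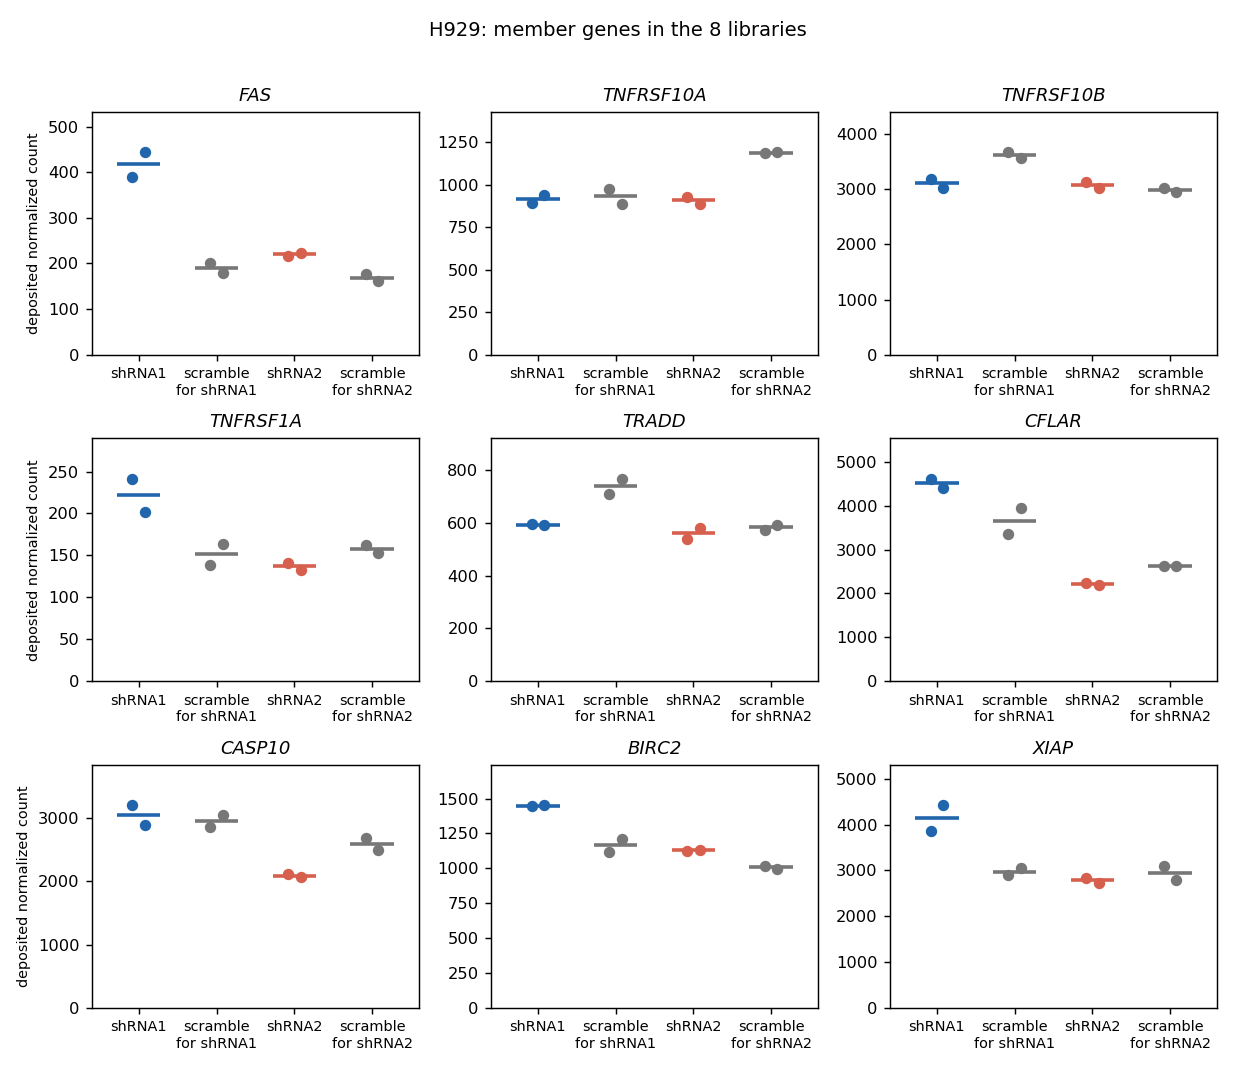
Deposited normalized counts (vertical axes, from 0) of each member in the 8 H929 libraries; points are libraries and lines are group means, with each hairpin left of its own scramble group. FAS, TNFRSF1A and XIAP are highest in the shRNA1 libraries, and for TNFRSF10A, TNFRSF10B and TRADD the group that stands apart is a scramble group.

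The hairpins were then set against each other, since agreement between hairpins is the usual guard against effects of a single sequence. In MM1.S, 0 members were higher and 5 lower with shRNA2 than with shRNA1, where 36.8% of genes passed in either direction, 16.4% higher and 20.4% lower. These were CFLAR (-0.94 ± 0.12 (SE), edgeR adjusted p 0.00111), FAS (-0.74 ± 0.17 (SE), edgeR adjusted p 0.0124), CASP10 (-0.56 ± 0.11 (SE), edgeR adjusted p 0.00685), TNFRSF1A (-0.56 ± 0.12 (SE), edgeR adjusted p 0.00880) and TNFRSF10A (-0.35 ± 0.11 (SE), edgeR adjusted p 0.0431). In H929, where each hairpin is first set against its own scramble, the shRNA2 effect was lower than the shRNA1 effect for 6 members and higher for 0, where 41.8% of genes passed, 20.0% higher and 21.9% lower. These were TNFRSF1A (-0.75 ± 0.22 (SE), limma adjusted p 0.0110), FAS (-0.74 ± 0.19 (SE), limma adjusted p 0.00479), XIAP (-0.56 ± 0.13 (SE), limma adjusted p 0.00223), CFLAR (-0.55 ± 0.13 (SE), limma adjusted p 0.00228), TNFRSF10A (-0.37 ± 0.13 (SE), limma adjusted p 0.0303) and CASP10 (-0.35 ± 0.12 (SE), limma adjusted p 0.0286). FAS, TNFRSF10A, TNFRSF1A, CFLAR and CASP10 passed as lower in both lines, 5 of the 9 members. Of the 15761 genes tested in both lines, 11.6% were lower in both, 10.1% higher in both and 1.52% opposite. These 5 members are all 5 called in MM1.S and 5 of the 6 called in H929. Over all genes, 3644 were lower in MM1.S, 3984 in H929 and 1822 in both. The lines share no library, so these values come from separate samples. For TNFRSF10A in H929 the shRNA1 libraries (894 and 942 normalized counts) and the shRNA2 libraries (927 and 889.8) overlapped. Its scramble groups differed instead (log2 0.35 for the scramble for shRNA2 over that for shRNA1). For FAS, TNFRSF1A, CFLAR, CASP10 and XIAP the H929 shRNA1 libraries lay above the shRNA2 libraries without overlap. The members' median difference was -0.35 in MM1.S and -0.37 in H929, beside -0.00291 and 0.02 over all genes.

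CFLAR kept its call in both lines in every fit that left out 1 library, as did FAS and XIAP in H929. In MM1.S the call of FAS was lost without shRNA1 replicate 1 or shRNA2 replicate 2 (log2 -0.66 to -0.57, edgeR adjusted p 0.0785 to 0.0917), that of TNFRSF1A without shRNA2 replicate 1 (log2 -0.46, edgeR adjusted p 0.0943), that of CASP10 without shRNA2 replicate 1 or shRNA2 replicate 2 (log2 -0.56 to -0.54, edgeR adjusted p 0.0576 to 0.0675), and that of TNFRSF10A without any 1 of the 6 libraries (log2 -0.38 to -0.31, edgeR adjusted p 0.0627 to 0.236). In H929 the call of TNFRSF1A was lost without shRNA2 replicate 2 (log2 -0.71, limma adjusted p 0.0508), that of CASP10 without scramble for shRNA1 replicate 1, scramble for shRNA2 replicate 1, shRNA1 replicate 1, shRNA2 replicate 1 or shRNA2 replicate 2 (log2 -0.37 to -0.28, limma adjusted p 0.0814 to 0.109), and that of TNFRSF10A without scramble for shRNA2 replicate 1, scramble for shRNA1 replicate 2, scramble for shRNA2 replicate 2, shRNA1 replicate 2, shRNA2 replicate 1 or shRNA2 replicate 2 (log2 -0.40 to -0.30, limma adjusted p 0.0601 to 0.126). Without replicate 2 of shRNA2, 3 of the 6 H929 calls were left. In MM1.S 3 of the 5 calls were left without shRNA1 replicate 1, and 2 without either shRNA2 library. Over all alternatives the adjusted p of TNFRSF10A was 2.10e-04 to 0.236 in MM1.S and 0.0241 to 0.126 in H929, and that of CASP10 was 8.60e-06 to 0.0675 and 0.00990 to 0.109. For FAS it was 6.38e-06 to 0.0917 in MM1.S, and for TNFRSF1A 2.48e-05 to 0.0943 in MM1.S and 0.00504 to 0.0508 in H929. With the replicate block all 9 members passed in MM1.S, 1 higher (XIAP, 0.17, edgeR adjusted p 0.0171) and 8 lower, among them TNFRSF10B (-0.35, edgeR adjusted p 0.00112), TRADD (-0.31, edgeR adjusted p 0.00137) and BIRC2 (-0.21, edgeR adjusted p 0.00996). That fit called 58.2% of all genes, against 36.8% without the block. ZBP1 itself, for comparison, had log2 fold changes with shRNA2 of -3.11 in MM1.S and -1.62 in H929, against -2.55 and -1.31 with shRNA1. The part of depletion depth or of other targets of a hairpin in these differences was not tested.

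**Figure D4:**
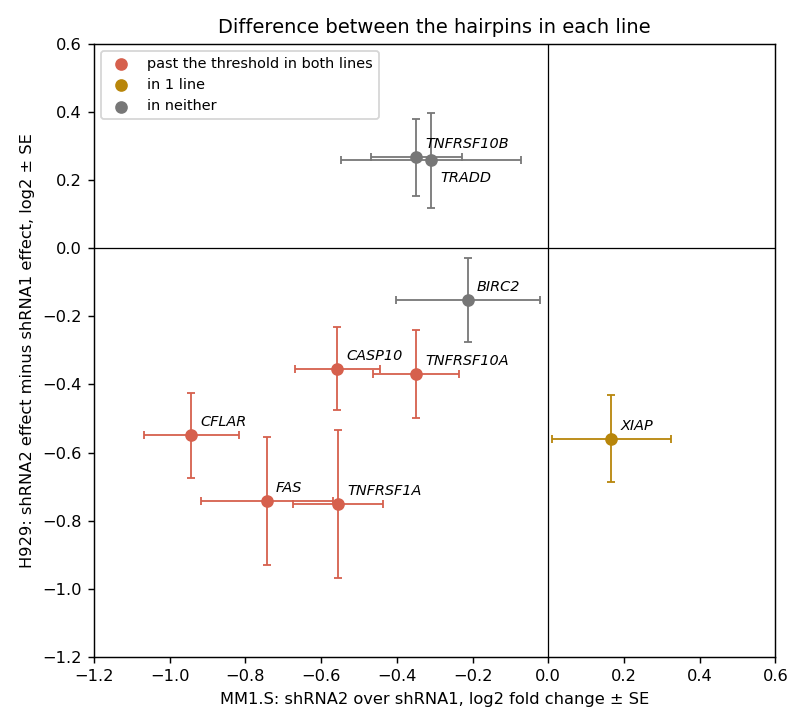
Difference between the hairpins for each member: log2 fold change of shRNA2 over shRNA1 in MM1.S (horizontal axis, edgeR) against the shRNA2 effect minus the shRNA1 effect in H929 (vertical axis, limma), both with standard errors. The 5 members that passed in both lines lie in the lower left, and XIAP passed in H929 alone (-0.56) with a MM1.S value of 0.17. For TNFRSF10A in H929 the hairpin libraries overlapped and the scramble groups differed.

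The scramble groups of H929 differed for 4 members, which bears on every H929 value given against its own scramble. With the scramble for shRNA2 over the scramble for shRNA1, TNFRSF10A was higher (0.35 ± 0.09 (SE), limma adjusted p 0.00801), and CFLAR (-0.47 ± 0.09 (SE), limma adjusted p 9.19e-04), TRADD (-0.34 ± 0.10 (SE), limma adjusted p 0.0157) and TNFRSF10B (-0.28 ± 0.08 (SE), limma adjusted p 0.0146) were lower, where 29.9% of genes passed, 16.8% higher and 13.1% lower. The CFLAR difference held in all 8 fits that left out 1 library. Without replicate 2 of the scramble for shRNA1, 2 of the 4 calls were left. That of TNFRSF10A was lost without scramble for shRNA1 replicate 2 (log2 0.29, limma adjusted p 0.0848), that of TNFRSF10B without scramble for shRNA1 replicate 1 or scramble for shRNA2 replicate 2 (log2 -0.26, limma adjusted p 0.0666 to 0.0702), and that of TRADD without scramble for shRNA2 replicate 1 or scramble for shRNA1 replicate 2 (log2 -0.32 to -0.29, limma adjusted p 0.0754 to 0.122). Over all alternatives these 3 had adjusted p of 0.00414 to 0.0848, 0.00748 to 0.0702 and 0.00993 to 0.122. For CFLAR the difference (-0.47) is larger in size than both of its hairpin effects called in H929 (0.31 with shRNA1 and -0.24 with shRNA2). For TNFRSF10A, TNFRSF10B and TRADD these differences (0.35, -0.28 and -0.34) are about as large as the hairpin effects called for the same genes in H929 (-0.39 with shRNA2, and -0.22 and -0.32 with shRNA1). What the scramble groups differ in besides the hairpin they were paired with is not given in the sources used here, and a batch cannot be told apart from that pairing.

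The same hairpin did not act alike on all members in the 2 lines. Each H929 effect is taken against its own scramble group, and those groups differed for CFLAR, TNFRSF10A, TNFRSF10B and TRADD. For shRNA1, the effect in MM1.S minus the effect in H929 passed for 4 members, 3 of them higher, where 21.4% of 20370 genes passed in a limma fit of all 14 libraries, 10.4% higher and 11.0% lower. TNFRSF10B (0.96 ± 0.12 (SE), limma adjusted p 1.81e-04), TNFRSF10A (0.69 ± 0.13 (SE), limma adjusted p 0.00207) and CFLAR (0.58 ± 0.14 (SE), limma adjusted p 0.0121) had the higher effect in MM1.S, and FAS (-0.77 ± 0.21 (SE), limma adjusted p 0.0212) in H929. For shRNA2 it passed for TNFRSF10A (0.74 ± 0.13 (SE), limma adjusted p 0.00371) and FAS (-0.74 ± 0.21 (SE), limma adjusted p 0.0455), where 9.75% of genes passed, 4.34% higher and 5.41% lower. TNFRSF10A and TNFRSF10B kept their calls in all 14 fits that left out 1 library, for the effects named. Without replicate 2 of the H929 scramble for shRNA1, 2 of the 4 shRNA1 calls were left. For shRNA2, 1 call was left without either MM1.S shRNA2 library or any 1 of the 8 H929 libraries, and 4 members passed without MM1.S scramble replicate 2. With the replicate number as a block in each line, 5 members passed for shRNA1, TRADD being the addition (0.58, limma adjusted p 0.00159), where 31.4% of all genes passed. For shRNA2 also 5 passed, with TNFRSF10B (0.37, limma adjusted p 0.0251), CASP10 (-0.40, limma adjusted p 0.0162) and XIAP (0.49, limma adjusted p 0.0105) added, where 18.9% of all genes passed.

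Around the members, 56 other genes of the same routes were listed, of which 49 were tested in MM1.S and 48 in H929. In MM1.S 18 were called higher and 9 lower of 49 for shRNA1, where 17.8% of all genes were higher and 19.7% lower. For shRNA2 the counts were 9 higher and 15 lower of 49, where 14.9% and 21.7% of all genes were. In H929 they were 18 higher and 12 lower of 48 for shRNA1, where 25.7% and 27.7% of all genes were, and 5 higher and 17 lower of 48 for shRNA2, where 18.0% and 25.0% were. The same shares of all genes apply to the counts by role. The median log2 fold change over the list was 0.24 and -0.05 in MM1.S, and 0.04 and -0.09 in H929, for shRNA1 and shRNA2 in that order, beside the all-gene medians given for the members. The MM1.S comparisons share their scramble libraries. Among 6 ligands, 2 rose and 1 fell of 3 tested in MM1.S shRNA1, 0 rose and 2 fell of 3 tested in MM1.S shRNA2, 0 rose and 0 fell of 1 tested in H929 shRNA1, and 0 rose and 1 fell of 1 tested in H929 shRNA2. TNFSF10, the TRAIL ligand, had 29.00 and 20.5 CPM with shRNA1 and 5.01 and 3.50 CPM with shRNA2 in MM1.S, against 9.03 and 6.23 CPM in scramble. It rose with shRNA1 (1.70 ± 0.27 (SE), edgeR adjusted p 0.00205) and fell with shRNA2 (-0.84 ± 0.28 (SE), edgeR adjusted p 0.0463). In H929 it had 5.05 and 12.2 normalized counts with shRNA2, against 53.6 and 25.5 in its scramble, and fell (-2.09 ± 0.46 (SE), limma adjusted p 0.00172), while its shRNA1 value was -0.13 ± 0.46 (SE), limma adjusted p 0.830. TNFSF15 had 9 and 7 reads with shRNA1 and 5 and 1 with shRNA2 in MM1.S, against 61 and 75 reads in scramble, and passed as lower with both (edgeR adjusted p 0.00154 and 5.22e-04). Among 8 other death, decoy and related receptors, 4 rose and 1 fell of 6 tested in MM1.S shRNA1, 1 rose and 2 fell of 6 tested in MM1.S shRNA2, 2 rose and 2 fell of 6 tested in H929 shRNA1, and 0 rose and 4 fell of 6 tested in H929 shRNA2. TNFRSF12A, the receptor for TWEAK, rose with shRNA1 in H929 (1.79 ± 0.16 (SE), limma adjusted p 1.24e-07), with 794 and 583 normalized counts, against 177 and 217 in its scramble. TNFRSF25 (DR3) had few reads in MM1.S, with 1.54 and 2.40 CPM with shRNA1, against 0.156 and 0.403 CPM in scramble (2.77 ± 0.55 (SE), edgeR adjusted p 0.00585).

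Among 18 adaptors and regulators of the receptor complexes, 5 rose and 1 fell of 18 tested in MM1.S shRNA1, 4 rose and 4 fell of 18 tested in MM1.S shRNA2, 8 rose and 3 fell of 18 tested in H929 shRNA1, and 3 rose and 3 fell of 18 tested in H929 shRNA2. FADD and CASP8, the core of the death-inducing complex, passed in none of the 4 comparisons, with log2 fold changes of -0.12 and 0.11 in MM1.S and -0.21 and 0.07 in H929 for FADD, and of -0.21, -0.09, 0.12 and 0.04 for CASP8. FADD shares 54.9% of its exon bases with an antisense transcript. The unadjusted p of both genes was at least 0.131. RIPK1, the kinase recruited beside TRADD, rose with shRNA1 in MM1.S (0.66 ± 0.12 (SE), edgeR adjusted p 0.00400) and in H929 (0.83 ± 0.13 (SE), limma adjusted p 3.87e-05), while shRNA2 gave 0.13 and -0.03 (adjusted p 0.437 by edgeR and 0.857 by limma). TRAF1, a partner of the cIAPs, rose with shRNA1 in MM1.S (2.32 ± 0.15 (SE), edgeR adjusted p 4.73e-05), with 40.9 and 45.8 CPM, against 8.09 and 9.24 CPM in scramble. DEDD, a death effector domain protein that shares 22.6% of its exon bases with NIT1 on the opposite strand, rose with shRNA2 in MM1.S (0.97 ± 0.12 (SE), edgeR adjusted p 6.26e-04) and in H929 (0.48 ± 0.09 (SE), limma adjusted p 3.84e-04). DEDD2 (0.59 ± 0.13 (SE), limma adjusted p 0.00149) and SPATA2 (0.50 ± 0.11 (SE), limma adjusted p 0.00216), which bridges the deubiquitinase CYLD to the receptor complex, rose with shRNA2 in H929.

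Among 11 caspases and genes of the mitochondrial arm, 2 rose and 4 fell of 11 tested in MM1.S shRNA1, 1 rose and 5 fell of 11 tested in MM1.S shRNA2, 3 rose and 3 fell of 11 tested in H929 shRNA1, and 1 rose and 6 fell of 11 tested in H929 shRNA2. BID, which carries the death receptor signal to mitochondria, fell with shRNA2 in MM1.S (-0.50 ± 0.12 (SE), edgeR adjusted p 0.0128) and in H929 (-0.95 ± 0.10 (SE), limma adjusted p 2.22e-06). With shRNA1 BID rose in MM1.S (0.37 ± 0.12 (SE), edgeR adjusted p 0.0411) and had -0.06 ± 0.10 (SE), limma adjusted p 0.626, in H929. CASP4, an inflammatory caspase, fell with shRNA1 in H929 (-1.85 ± 0.22 (SE), limma adjusted p 3.64e-06).

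Among 10 further IAPs and IAP antagonists, 4 rose and 1 fell of 8 tested in MM1.S shRNA1, 2 rose and 1 fell of 8 tested in MM1.S shRNA2, 5 rose and 2 fell of 10 tested in H929 shRNA1, and 1 rose and 2 fell of 10 tested in H929 shRNA2. BIRC3, the cIAP2 partner of BIRC2, had 741 and 531 CPM with shRNA1 and 257 and 186 CPM with shRNA2 in MM1.S, against 187 and 138 CPM in scramble, and 781 and 934 normalized counts with shRNA1 in H929, against 235 and 169 in its scramble. It rose with shRNA1 in MM1.S (1.97 ± 0.23 (SE), edgeR adjusted p 6.02e-04) and in H929 (2.10 ± 0.16 (SE), limma adjusted p 2.42e-08), while shRNA2 gave 0.45 and -0.26 (adjusted p 0.160 by edgeR and 0.217 by limma). BIRC5, survivin, which also works in cell division, fell in all 4 comparisons (-2.76 and -4.67 in MM1.S, edgeR adjusted p 3.92e-05 and 2.44e-05, and -3.58 and -3.21 in H929, limma adjusted p 2.84e-10 and 4.33e-09). XAF1, an antagonist of XIAP with 38.3% of its exon bases under an opposite-strand transcript, rose with shRNA1 and shRNA2 in MM1.S (2.72 ± 0.28 (SE), edgeR adjusted p 2.90e-04, and 2.95 ± 0.28 (SE), edgeR adjusted p 2.16e-04), with 10.2 and 8.39 CPM and 11.8 and 10.1 CPM, against 1.02 and 1.80 CPM in scramble. In H929 it fell with shRNA1 (-2.66 ± 0.22 (SE), limma adjusted p 4.34e-08), with 74.4 and 93.9 normalized counts, against 496 and 576, and had 0.17 ± 0.22 (SE), limma adjusted p 0.550, with shRNA2. BIRC7 had 14 and 13 reads with shRNA1 in H929, against 0 and 0 in its scramble, so no fold is given. DIABLO, which frees caspases from IAPs, passed in none of the 4 (unadjusted p at least 0.0904), and its exons overlap a second entry of the same symbol. RIPK3, the necroptosis kinase that partners with ZBP1, had 0 reads in all 8 H929 libraries and rose with shRNA1 (0.76 ± 0.19 (SE), edgeR adjusted p 0.0181) and shRNA2 (0.84 ± 0.19 (SE), edgeR adjusted p 0.0121) in MM1.S. MLKL, its target, fell with shRNA1 in H929 (-0.63 ± 0.11 (SE), limma adjusted p 1.46e-04).

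**Figure D5:**
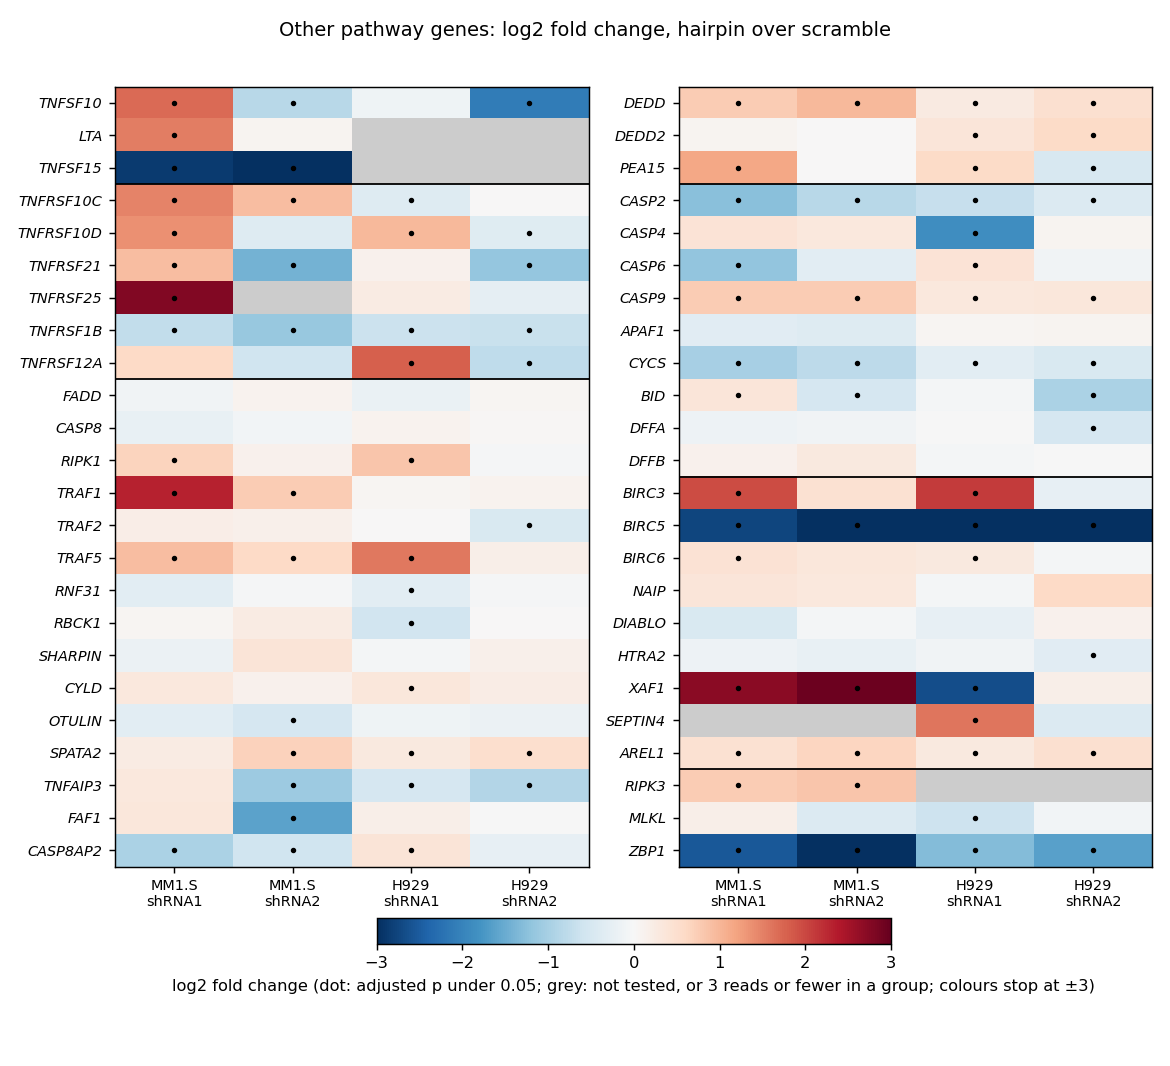
Log2 fold change of other pathway genes (rows, grouped by role between black lines: ligands, receptors, adaptors and regulators, then caspases and mitochondrial arm, IAPs and antagonists, and genes shared with necroptosis) for each hairpin over its scramble (columns). Red is higher and blue lower in the knockdown, colours stop at 3, dots mark an adjusted p under 0.05, and grey marks genes not tested or with 3 reads or fewer in a group; BIRC5 is deep blue in all 4 columns, and BIRC3 is red in both shRNA1 columns.

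By likeness of pattern over the 14 libraries (Pearson correlation of log2(CPM + 1) centred on the mean of each line, among 9803 genes with a mean of at least 5 CPM in each line), the closest genes were DENND5B (0.977) and DCBLD2 (0.972) for FAS, ZNF704 (0.979) and KLF10 (0.976) for TNFRSF1A, and NLRP1 (0.979) and MYO1F (0.974) for CFLAR. For CASP10 they were RAP2A (0.963) and C1orf21 (0.959), for BIRC2 PRKAB2 (0.977) and RLF (0.975), and for XIAP MFN1 (0.974) and CASC4 (0.966). For TNFRSF10A they were PCYOX1L (0.931) and NAV2 (0.916), for TNFRSF10B FNBP1 (0.942) and ABCG1 (0.939), and for TRADD RNPEPL1 (0.953) and PRICKLE3 (0.928). These are descriptions only, over the same libraries and depths. None of the 9 members was among the closest genes of another.

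In the authors' deposited tables of each hairpin against scramble, more members passed at an adjusted p under 0.05 in MM1.S, with 7 higher and 1 lower for shRNA1 and 4 higher and 3 lower for shRNA2. In H929 the authors' deposited tables had 5 higher and 1 lower for shRNA1, and 0 higher and 2 lower for shRNA2. All 4 MM1.S shRNA1 calls and all 3 shRNA2 calls given here were also called in the authors' deposited tables in the same direction, as were 6 of the 7 H929 shRNA1 calls and 2 of the 4 shRNA2 calls. TNFRSF10B with shRNA1 had an adjusted p of 0.0582 in the authors' deposited table, and with shRNA2 FAS had 0.154 and CFLAR 0.0804 there. The fold changes of the members in the authors' deposited tables differed from those given here by at most 0.05 on the log2 scale.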

How the data were processed

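RNA of 14 libraries was sequenced after poly(A) selection and NEBNext library preparation, per the labels' protocols. STAR 2.5.3a, DESeq2 1.24.0 and GRCh38 (hg38) are named in the submitters' processing notes; the counter and strand setting are not given in the sources used here. The authors deposited whole read counts per gene for MM1.S, per the file headers. The H929 table deposited by the authors holds a normalized signal, counts divided by 1 size factor per library: 100.0% of values above 0 came out whole (within 0.01). The authors also deposited a log2 fold change and adjusted p-value per gene and hairpin. Of 58069 rows, 18 repeats were left out. Columns of shRNA2 and of 1 H929 scramble library were assigned by elimination; fold changes from them differed from the authors' tables by a median of 0.00620 or less in MM1.S and 0.0176 or less in H929, on the log2 scale.

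MM1.S counts were tested with edgeR 4.0.16 (quasi-likelihood, TMM, filterByExpr at 10 counts; R 4.3.3), all 6 libraries in 1 fit. H929 values were tested with limma 3.58.1 (trend) on log2(value + 1), for genes at 10 or more in at least 2 libraries, all 8 libraries in 1 fit, so its fold changes, like those between lines, are on that scale. Line differences used limma over all 14 libraries. Positions and exon lengths came from GENCODE 29. Same-numbered MM1.S libraries deviated together (correlations 0.710 to 0.840 over 9782 genes), which pairs them, although what the numbers mean is not stated; those of H929 were -0.205 to 0.235. Members, lists and the naming rule (all members, fixed pathway genes and the 3 highest and 3 lowest per comparison) were chosen with earlier results of these data known. Alternatives were other scalings, tests (DESeq2 1.42.0 among them), filters and pseudocounts, fewer groups, the replicate block and leaving out each library. The scripts were tested on simulated data. Some listed genes are not reported here by name.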

Additional observations from a re-analysis of the deposited data

Results flagged for a closer look

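A hairpin's effect on 4 members differed between the lines in a direct test of the difference (limma, 14 libraries, adjusted over 20370 genes). For TNFRSF10B with shRNA1 the MM1.S effect minus the H929 effect was 0.96 ± 0.12 (SE), limma adjusted p 1.81e-04, and the receptor was higher than scramble in both MM1.S libraries and lower than its own scramble in both H929 libraries. For TNFRSF10A it was 0.69 ± 0.13 (SE), limma adjusted p 0.00207, with shRNA1 and 0.74 ± 0.13 (SE), limma adjusted p 0.00371, with shRNA2. Both held in every fit that left out 1 library. In H929 the scramble for shRNA2, against which TNFRSF10A fell, was itself higher than the scramble for shRNA1 by 0.35 on the log2 scale. TNFRSF10B in H929 averaged 3109 normalized counts with shRNA1, below its own scramble (3621) but above the scramble for shRNA2 (2985).

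For CFLAR with shRNA1 the difference was 0.58 ± 0.14 (SE), limma adjusted p 0.0121, lost without H929 scramble for shRNA1 replicate 2 (log2 0.46, limma adjusted p 0.0594). For FAS it was -0.77 ± 0.21 (SE), limma adjusted p 0.0212, with shRNA1 and -0.74 ± 0.21 (SE), limma adjusted p 0.0455, with shRNA2, so the effect of both hairpins over scramble was higher in H929. The shRNA1 call of FAS was lost without MM1.S scramble replicate 1, MM1.S shRNA1 replicate 2, H929 scramble for shRNA1 replicate 2 or H929 shRNA1 replicate 2 (log2 -0.69 to -0.59, limma adjusted p 0.0748 to 0.0818). Its shRNA2 call was lost in 11 of 14 fits that left out 1 library (log2 -0.83 to -0.56, limma adjusted p 0.0537 to 0.143), holding without MM1.S scramble replicate 2 or either MM1.S shRNA1 library. In H929 CFLAR averaged 4505 normalized counts with shRNA1, against 3649 in its own scramble and 2620 in the scramble for shRNA2. Its line difference against the scramble for shRNA2 was not computed. No reason for the differences between the lines was tested.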

How the results depend on the processing

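The direction of every called member was kept under every alternative run. The 16 sign changes concern members that passed in no fit for that comparison but TRADD with shRNA1 in MM1.S, which passed with the block. Leaving out 1 library gave log2 ranges of -0.00947 to 0.567 (shRNA1) and -0.313 to 0.264 (shRNA2) for TRADD and -0.107 to 0.0149 for CFLAR with shRNA2 in MM1.S. In H929 with shRNA1 these were -0.0876 to 0.0463 for TNFRSF10A and -0.0294 to 0.119 for CASP10. Between the H929 scramble groups they were -0.0478 to 0.181 for TNFRSF1A and -0.0857 to 0.0622 for XIAP. For the shRNA2 line difference they were -0.251 to 0.323 for TRADD, which TMM scaling put at -0.0567, and -0.00166 to 0.440 for BIRC2.

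Members called changed with the replicate block in MM1.S to 8 for shRNA1, 7 for shRNA2 and 9 between hairpins, and to 5 for the shRNA2 line difference. The block called 59.4%, 58.8%, 58.2% and 18.9% of all genes in these comparisons, in that order. In H929 the block changed no member's call. Without a filter, 2 members passed with shRNA2 in H929 and 1 for the shRNA2 line difference. Leaving out 1 library, members called ranged as follows: 1 to 2 of 9 for shRNA2 in MM1.S, 2 to 4 between the MM1.S hairpins, 3 to 7 for shRNA1 and 1 to 4 for shRNA2 in H929, 3 to 6 between the H929 hairpin effects, 2 to 4 between the H929 scramble groups, 2 to 5 for shRNA1 and 1 to 4 for shRNA2 between the lines, and 3 to 4 for shRNA1 in MM1.S. Where 1 library of a group was left out, the other was taken to vary like the remaining groups. edgeR on the reads recovered for H929 called 9935 genes with shRNA1 and 8022 with shRNA2, with 5 members higher and 2 lower, and 1 higher and 2 lower. For the H929 hairpin difference, a fit of only the compared groups is the fit reported. With 2 libraries a group, members that miss the threshold are not shown to be unaffected.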

Other observations

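Of the 56 other pathway genes, 3 rose and 5 fell in all 4 hairpin comparisons, of which the MM1.S ones share their scramble. Of all 15761 genes tested in all 4, 2.32% rose and 6.27% fell in all 4, and 46 of the pathway genes were so tested, ZBP1 itself among them. The genes named were picked out after their values were seen. CASP9, the initiator caspase of the mitochondrial route, rose by 0.75 and 0.77 (log2) with shRNA1 and shRNA2 in MM1.S (edgeR adjusted p 0.00523 and 0.00497) and by 0.31 and 0.34 in H929 (limma adjusted p 0.0367 and 0.0316). DEDD and AREL1, a ubiquitin ligase that acts on IAP antagonists, were the others that rose. CYCS, cytochrome c, fell by 1.00 and 0.78 in MM1.S (edgeR adjusted p 0.00134 and 0.00420) and by 0.32 and 0.45 in H929 (limma adjusted p 0.00616 and 7.25e-04). CASP2 and TNFRSF1B, a receptor for tumour necrosis factor without a death domain, fell with BIRC5 and ZBP1. CYCS and CASP2 also differed between the H929 scramble groups, being higher in the scramble for shRNA2 by 0.80 and 0.69 (limma adjusted p 1.09e-05 and 1.23e-04).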
